A study of Mus musculus with 6 samples.

Results

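The regions described here are the ChIP-seq peaks that carry the same chromosome, start and end in the list labelled WT ATRX and in the list labelled TKO DAXX. They were chosen by matching the 3 coordinates to the base. There were 750 of them among 7165 peaks in the 6 lists of the series. Of the 1440 peaks in the first list they were 52.1% (exact 95% binomial interval 49.5 to 54.7). Of the 2046 in the second they were 36.7% (34.6 to 38.8). In ChIP-seq, DNA bound by a protein is recovered with an antibody and sequenced, and a peak is a stretch where the recovered fragments pile up.

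The WT cells were J1 mouse embryonic stem cells, and the TKO cells were mouse embryonic stem cells with a homozygous knockout of the DNA methyltransferases (DNMTs). All 6 libraries came from cells kept in ES medium with 2i, which adds 1 µM PD0325901, an inhibitor of MEK, and 3 µM CHIR99021, an inhibitor of GSK3. Antibodies against ATRX, antibodies against DAXX and rabbit IgG were each used in both lines, which gave 1 library per group. The labels name no clone, passage or culture for either line, so each line stands for itself alone. The groups compared here therefore differ in both the line and the antibody, since WT ATRX is set beside TKO DAXX.

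ATRX is a chromatin remodeller of the SNF2 family, and DAXX is a histone chaperone that binds the histone variant H3.3. Together they are known to deposit H3.3 at telomeres and pericentromeric heterochromatin. Mouse pericentromeric heterochromatin is built from tandem copies of major satellite DNA, which is heavily methylated in most cells. Mouse chromosomes are acrocentric, so the assembled sequence of each begins next to such repeats, and reads from satellite copies that are not in the assembly pile up on the few that are. The start of chromosome 9 and a short stretch of chromosome 2 are well known places of this kind. No mm9 sequence or repeat annotation was used here, so the repeat content and the genes at these peaks were not checked against the data.

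The lists are called by their labels throughout. Of the 690 WT ATRX peaks outside the identical set, 0 overlapped any TKO DAXX peak outside it, and 2 lay within 1 kb of one. There was thus no range of partly matching peaks between the exact matches and the misses. Among the 47 pairs of an identical peak and an overlapping TKO ATRX peak, 0 matched at both ends. Whether these 2 lists were made from the same reads, or whether a label of either is wrong, was not tested, and every value given for WT ATRX or TKO DAXX depends on the labels. A peak present in both lists is therefore not counted here as 2 independent observations. Depth is unknown for all 4 antibody lists, since the files used here give no read totals.

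The strongest concentration of identical peaks was at the start of chromosome 9. There 11 peaks lay within 38296 bp, at chr9:2999985-3038280 (mm9), and covered 31.2% of that stretch. Their widths ran from 622 to 1934 bp with a median of 959 bp, against a median of 318 bp over all identical peaks. The peak caller gave each a score, the authors' value, which ranks peaks within a list and whose scale no header names. In the WT ATRX list these 11 scores ran from 73.46 to 416.54 with a median of 102.54. In the TKO DAXX list the same 11 intervals scored from 177.58 to 1671.01 with a median of 412.31. All 11 scored higher in the TKO DAXX list, by between 97.06 and 1254.47.

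The first interval, chr9:2999985-3001853, had the highest score of the chromosome in both lists, 416.54 in WT ATRX and 1671.01 in TKO DAXX. Its neighbour, chr9:3002022-3002690, was separated from it by 168 bp and scored 80.3 and 412.31. The interval chr9:3009077-3010035 scored 102.54 and 221.39. These 3 were the members of the stretch nearest to the chromosome's assembled start, and all 3 overlapped a TKO ATRX peak.

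Near the middle, 3 more lay close together. The interval chr9:3018226-3018855 scored 90.94 in WT ATRX and 217.22 in TKO DAXX. The next, chr9:3019582-3020648, scored 191.56 and 578.12. The interval chr9:3021812-3022788 scored 79.65 and 307.72. None of the 3 overlapped a TKO ATRX peak.

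A further pair was separated by 140 bp. The interval chr9:3023282-3025215, 1934 bp wide, scored 186.7 in WT ATRX and 1228.02 in TKO DAXX. Its neighbour chr9:3025356-3026052 scored 139.34 and 588.49. In the TKO ATRX list a single peak of 2759 bp, chr9:3023298-3026056 with a score of 267.89, covered both.

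The last 3 intervals of the stretch overlapped 0 TKO ATRX peaks. The interval chr9:3032222-3032901 scored 108.94 in WT ATRX and 345.77 in TKO DAXX. At chr9:3034573-3036398, 1826 bp wide, the WT ATRX score was 73.46, close to the lowest value of that list (70.01), while the TKO DAXX score was 545.63. The interval chr9:3037659-3038280 scored 80.52 and 177.58. The interval with the lowest WT ATRX score of the stretch was thus not the one with the lowest TKO DAXX score.

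The place on chromosome 2 between 98 and 99 Mb held 2 identical peaks, and they had the widest score differences of the set together with the first chromosome 9 interval. The interval chr2:98502369-98503165 scored 192.11 in WT ATRX and 1286.1 in TKO DAXX. The interval chr2:98506375-98507509 scored 170.25 and 1792.48, the highest TKO DAXX score of all. Both overlapped a TKO ATRX peak, with scores of 186.63 and 196.29. The second of these, chr2:98506378-98507507, started 3 bp after the identical peak and stopped 2 bp before its end.

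**Figure D1:**
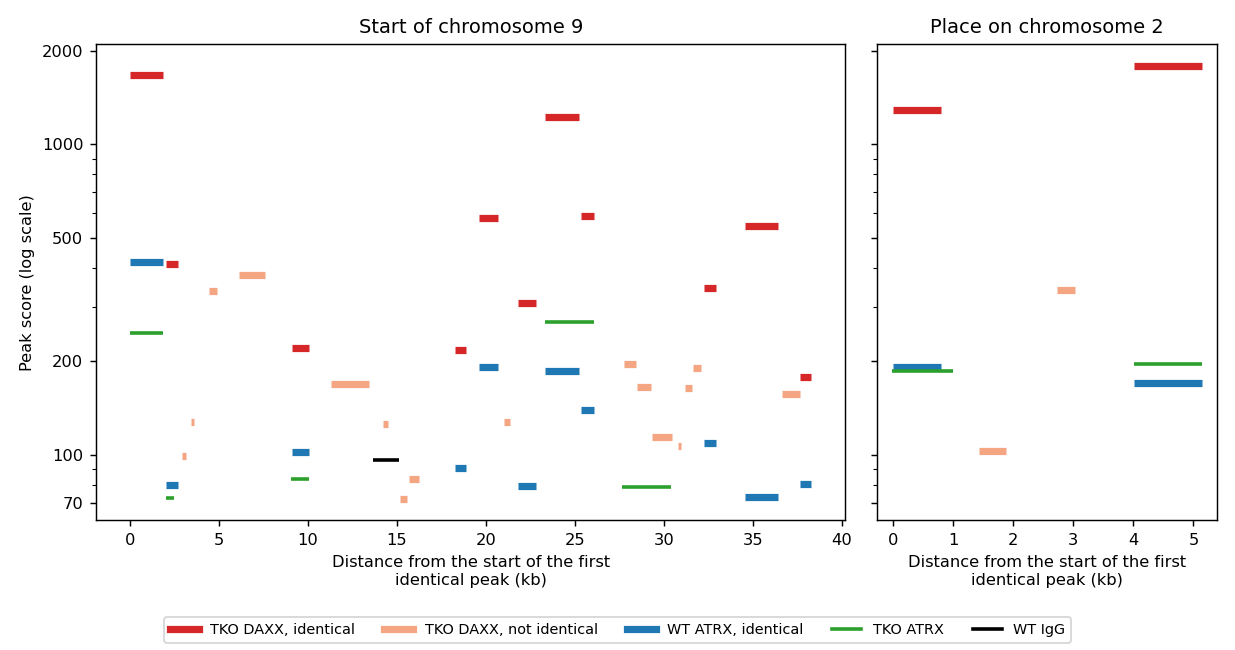
Peaks at the start of chromosome 9 and at the place on chromosome 2, drawn as bars from start to end against their score (log scale), by list. The x axis is the distance in kb from the start of the first identical peak. Each identical interval appears once in blue (WT ATRX) and once in red (TKO DAXX), always with the red bar above the blue one, and the pale bars are the TKO DAXX peaks without a WT ATRX counterpart. A TKO ATRX peak beyond 45 kb is not drawn.

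At these places the WT ATRX list was contained in the TKO DAXX list. All 13 WT ATRX peaks there were identical peaks, whereas the TKO DAXX list held 31, of which 18 had no WT ATRX counterpart. The 16 unmatched ones on chromosome 9 scored between 72.34 and 378.85, with a median of 142.47 and a median width of 470 bp, and filled gaps between the identical intervals. Together the 27 TKO DAXX peaks covered 58.9% of the chromosome 9 stretch. The TKO ATRX list held 6 peaks before 4 Mb on chromosome 9, and 1 of them, chr9:3079749-3079923, lay beyond the last identical peak. The WT DAXX list held 0 peaks at either place.

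By the peak lists, rabbit IgG had a peak there in WT cells only, in a list whose peaks held 19267 tags in all. In WT cells 1 IgG peak, chr9:3013660-3015124, lay between 2 identical intervals without touching either, with 700 tags, a score of 96.3 and a fold enrichment of 18.82 over the caller's background. The TKO IgG list, whose peaks held 69180 tags in all, had 0 peaks at both places. Which library served as control for each call is not stated in the sources used here.

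Over all 750 intervals the scores were mostly under 100, though higher than those of the other peaks of each list. The 2 scores were only loosely ordered alike. The median score was 85.17 in WT ATRX (95% order-statistic interval 83.87 to 86.50) and 86.69 in TKO DAXX (85.22 to 88.01), against lowest values of 70.01 and 70.03. The other peaks of these lists had medians of 78.40 and 80.82. Under 100 in both lists were 485 intervals, or 64.7%, and 95 reached 100 in both. In WT ATRX 159 identical peaks (21.2%) reached 100, beside 55 of the other 690. In TKO DAXX it was 201 (26.8%), beside 195 of the other 1296. Spearman's rho between the 2 scores was 0.41 over the 750 intervals and 0.40 over the 737 outside the places on chromosomes 2 and 9. These are descriptions across peaks that share their coordinates and were chosen by having passed both lists. Of the 100 highest in WT ATRX, 49 were among the 100 highest in TKO DAXX.

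**Figure D2:**
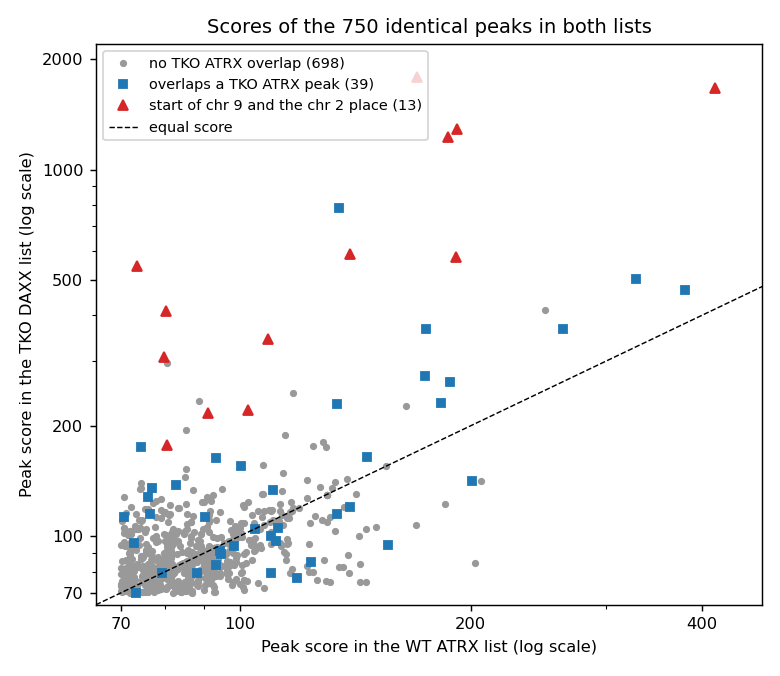
Score of each identical peak in the WT ATRX list (x axis, log scale) and in the TKO DAXX list (y axis, log scale), with 1 point per peak and a dashed line of equal score. The 13 triangles of the places on chromosomes 2 and 9 all lie above the line, of which 7 also overlap a TKO ATRX peak, and the bulk of the peaks scores under 100 in both lists.

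The TKO DAXX score was above the WT ATRX score at 348 of the 750 intervals (46.4%), below it at 297 (39.6%) and equal at 105 (14.0%). Since these scores belong to the lists that chose the members, the counts are a description. For 397 intervals the difference was at most 10 either way. Intervals with a higher TKO DAXX score had a median difference of 13.16, and those with a lower one a median of -9.62. The equal ones took 76 distinct values between 70.29 and 154.98, and 93 of the 105 were under 100. None of the 48 intervals of at least 600 bp had equal scores.

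The largest differences in favour of TKO DAXX lay mostly on wide intervals. Outside both places, 28 of the 35 intervals of at least 600 bp scored higher in TKO DAXX, with a median difference of 41.75 (18.13 to 57.85). Among the 702 narrower ones 307 did, with a median difference of 0. The largest difference outside the places was at chr9:35112779-35113198, a 420 bp interval scoring 134.84 in WT ATRX and 785.25 in TKO DAXX. It was followed by the 1246 bp interval chr8:125957198-125958443, which scored 80.38 and 296.53. Next came chr9:23352115-23353161, with scores of 174.76 and 367.64. The interval chr3:154135877-154137115 differed by 174.14 and the interval chr2:130034062-130035439 by 163.20. Of these 5, the ones on chromosome 3 and both on chromosome 9 overlapped a TKO ATRX peak.

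Differences in favour of WT ATRX were smaller, and the 5 largest lay on intervals under 600 bp. The interval chr7:7230690-7231061, 372 bp wide, scored 202.76 in WT ATRX, the seventh highest of the set, and 84.41 in TKO DAXX. At chr19:24935998-24936321 the scores were 146.27 and 74.80. At chr17:88076411-88076726 they were 143.33 and 74.86. The intervals chr12:77312886-77313326 and chr13:48226310-48226884 differed by -64.76 and -62.74. Differences beyond -50 occurred at 15 intervals, while 22 exceeded 100 in the other direction.

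By chromosome the identical peaks were spread over all 19 autosomes and the X, with 9 on the X and 93 on chromosome 11. Chromosome 11 held the largest number and also the highest autosomal share of WT ATRX peaks that were identical, 93 of 134 (69.4%, 60.9 to 77.1). On chromosome 8 the share was 57 of 112 (50.9%, 41.3 to 60.5). Over the other autosomes it ran from 39.3% on chromosome 15 to 56.9% on chromosome 2. Taken as a share of TKO DAXX peaks, the same chromosomes were at the low end, with 23.1% on chromosome 11 (19.1 to 27.6) and 22.5% on chromosome 8 (17.5 to 28.2), against 29.3% to 57.5% elsewhere. The first 10 Mb of the chromosomes held 57 identical peaks (7.60%), beside 7.56% of the TKO DAXX peaks and 5.80% of the WT ATRX peaks outside the set.

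The direction of the score difference varied between chromosomes. The intervals given here run over peaks with 1 library per group, and the scores belong to the lists that chose the members. These values are therefore a description, and no difference between chromosomes was tested. On chromosome 11, 67 of 93 identical peaks scored higher in TKO DAXX and 20 lower, with a median difference of 8.31 (4.48 to 11.67). On chromosome 8 it was 34 higher and 16 lower of 57, with a median of 6.40 (0 to 21.06). Chromosome 16 had 10 higher and 4 lower of 18, with a median of 6.675 (0 to 22.87). Chromosome 9 had 25 of 39 higher with a median of 20.31 (-3.09 to 97.06). Without the 11 intervals at its start 14 of 28 were higher and the median was 1.03 (-5.49 to 20.31). The smallest share of higher scores was on chromosome 4, with 10 of 38 higher, 21 lower and a median of -2.01 (-4.51 to 0). The lowest median was that of chromosome 17, at -5.46 (-11.48 to 6.32). Outside chromosomes 8 and 11 and both places, 234 of 587 intervals were higher (39.9%, 35.9 to 44.0) and 261 lower (44.5%, 40.4 to 48.6).

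**Figure D3:**
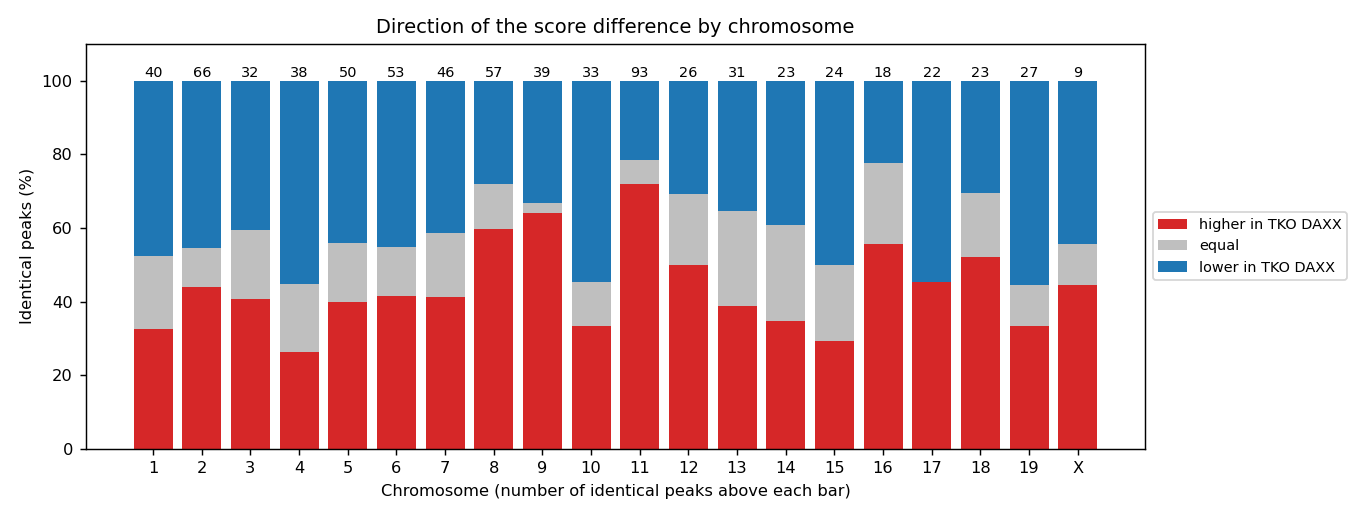
Share of the identical peaks of each chromosome (y axis, %) whose score was higher, equal or lower in the TKO DAXX list than in the WT ATRX list, with the number of identical peaks above each bar. Chromosome 11 has the highest red share, 67 of 93 peaks, and chromosome 4 the lowest, 10 of 38.

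The identical peaks held larger shares of both narrow and wide intervals than the rest of the WT ATRX list. Their median was 318 bp (313 to 326), beside 329 bp (324 to 333) for the other WT ATRX peaks and 331 bp (328 to 335) for the other TKO DAXX peaks. At least 600 bp wide were 48 of them (6.40%, 4.76 to 8.40), against 3.82% of all WT ATRX peaks and 6.06% of all TKO DAXX peaks. Among the other WT ATRX peaks there were 7 of 690 (1.01%, 0.41 to 2.08). At most 200 bp wide were 37 identical peaks (4.93%, 3.50 to 6.74), 14 other WT ATRX peaks (2.03%, 1.11 to 3.38) and 17 of 1296 other TKO DAXX peaks (1.31%, 0.77 to 2.09). The widest were chr18:24829925-24831964 with 2040 bp, the 1934 bp interval at the start of chromosome 9 and chr9:123842856-123844767 with 1912 bp. The narrowest, chr15:39652135-39652276, spanned 142 bp and scored 89.90 and 87.43.

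**Figure D4:**
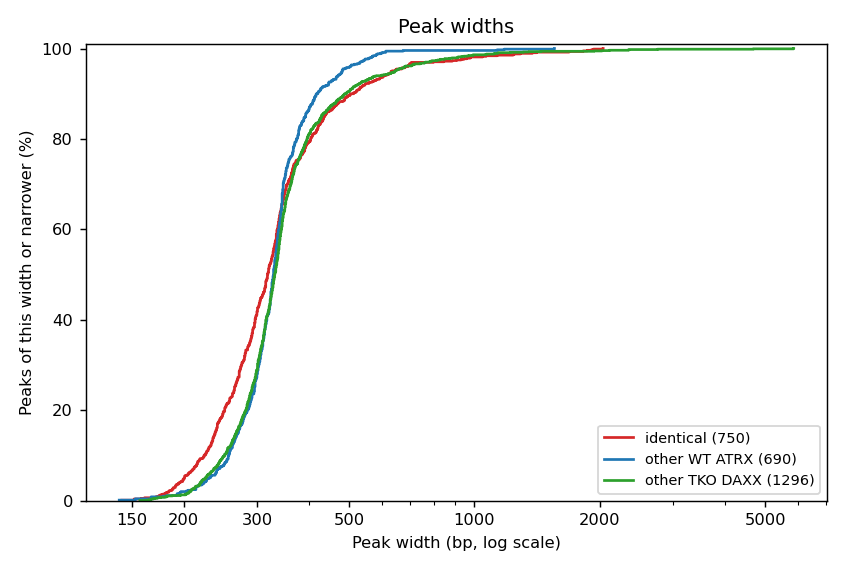
Cumulative share of peaks (y axis, %) by width in bp (x axis, log scale) for the 750 identical peaks and for the other 690 WT ATRX and 1296 TKO DAXX peaks. The curve of the identical peaks rises first on the left, where 4.93% are at most 200 bp wide, and stays below that of the other WT ATRX peaks on the right.

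With the 13 peaks of both places included, another identical peak was found within 100 kb of 89 of the 750 (11.9%, 9.64 to 14.4). Among the other WT ATRX peaks the share with a neighbour of their own set was much the same, 76 of 690 (11.01%, 8.78 to 13.6), and among the other TKO DAXX peaks it was 452 of 1296 (34.9%, 32.3 to 37.5). In the full lists, which are denser, it was 20.1% of WT ATRX and 38.2% of TKO DAXX peaks. The 89 formed 39 runs, of which 36 were pairs. Besides the start of chromosome 9, runs of 3 were found on chromosome 2 at chr2:170403091-170476269 and on chromosome 11 at chr11:51412931-51517880.

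Overlap with the other 4 lists was not used to choose the peaks. Most identical peaks, 699 of 750 (93.2%, 91.2 to 94.9), shared 0 bp with any peak of the TKO ATRX, WT DAXX, WT IgG or TKO IgG lists. Overlap was also rare over the whole lists. None of these lists met more than 3.82% of all WT ATRX peaks or 5.47% of all TKO DAXX peaks. A high share without overlap is therefore not particular to the identical peaks. With TKO ATRX, which matches each list in either the antibody or the line, 46 overlapped by at least 1 bp (6.13%, 4.52 to 8.10). The background is 3.82% of all WT ATRX peaks and 5.47% of all TKO DAXX peaks. Outside the identical set the share was 9 of 690 WT ATRX peaks (1.30%, 0.60 to 2.46) and 66 of 1296 TKO DAXX peaks (5.09%, 3.96 to 6.43). The interval of the identical peaks thus lay above that of the other WT ATRX peaks and overlapped that of the other TKO DAXX peaks. These intervals cover counting error over peaks only, and with 1 library per group no difference was tested.

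Among identical peaks the overlap was higher at scores from 100 on than below 100. By WT ATRX score it was 8 of 263 identical peaks under 80 (3.04%, 1.32 to 5.91), 9 of 328 from 80 to under 100 (2.74%, 1.26 to 5.14), 16 of 137 from 100 to under 150 (11.7%, 6.82 to 18.3) and 13 of 22 from 150 on (59.1%, 36.4 to 79.3). The other WT ATRX peaks gave 3 of 388 (0.77%, 0.16 to 2.24), 3 of 247 (1.21%, 0.25 to 3.51), 3 of 53 (5.66%, 1.18 to 15.7) and 0 of 2 in the same ranges. In each range their interval overlapped that of the identical peaks. The median score of the other WT ATRX peaks was 78.40, below that of the identical ones, so the shares over whole lists are not on equal scores. By TKO DAXX score the identical peaks gave 12 of 162 from 100 to under 150 (7.41%, 3.89 to 12.6), beside 24 of 165 other TKO DAXX peaks (14.5%, 9.55 to 20.9). From 150 on it was 20 of 39 (51.3%, 34.8 to 67.6) beside 8 of 30 (26.7%, 12.3 to 45.9). In both ranges the intervals overlapped.

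**Figure D5:**
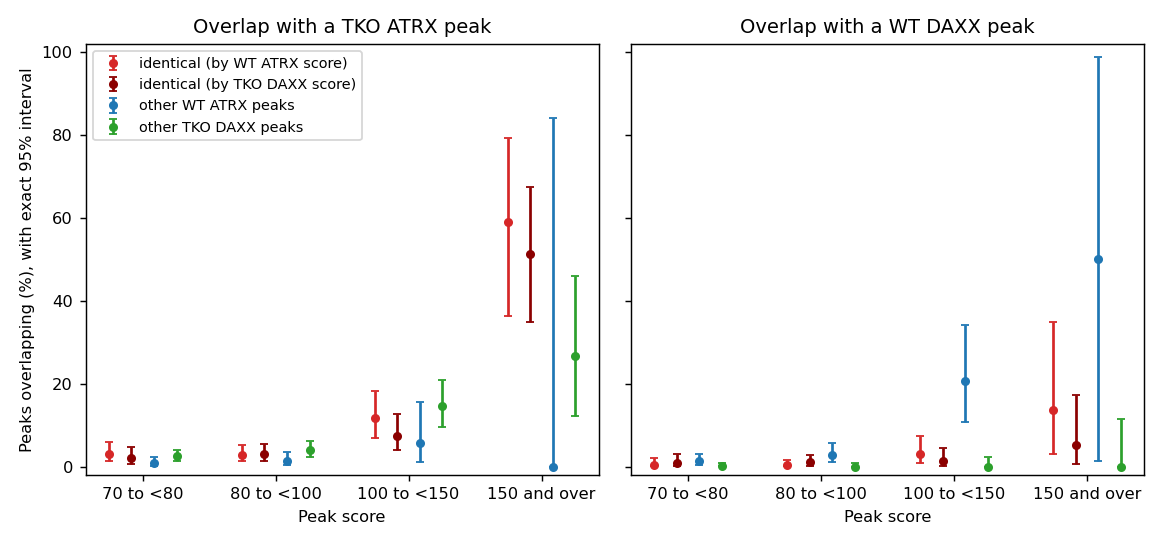
Share of peaks (y axis, %) that overlap a TKO ATRX peak (left) or a WT DAXX peak (right) by at least 1 bp, in 4 ranges of the peak score (x axis), with exact 95% binomial intervals as bars. On the left the identical peaks from 150 on reach 59.1% by WT ATRX score, and on the right the other WT ATRX peaks from 100 to under 150 stand at 20.8%.

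The TKO ATRX peaks met by identical peaks tended to score higher than the rest of that list. Their scores ran from 72.67, near the list's lowest of 70, up to 1152.59. The 46 of them had a median score of 169.93 (102.06 to 247.52), beside 80.09 (79.19 to 80.78) for the other 1604 of the list, and a median width of 658.5 bp beside 346 bp. Of the 100 highest TKO ATRX peaks, 25 overlapped an identical peak, 20 another TKO DAXX peak and 3 another WT ATRX peak. Over all 1650 TKO ATRX peaks these counts were 46, 61 and 9. Boundaries were close in part of the pairs: in 22 of the 47 both ends lay within 100 bp of each other, and in 5 within 10 bp. The median size of the offset was 41 bp at the start and 42 bp at the end, but a start offset of -2058 bp also occurred. The median share of the identical peak covered was 99.7%. The interval chr18:24829925-24831964 scored 263.8 in WT ATRX and 366.75 in TKO DAXX, and the peak over it had the top TKO ATRX score, 1152.59. The interval chr7:87938261-87939949 scored 381.03 and 469.75, with 376.69 in TKO ATRX. At chr1:184430927-184431383 the scores were 200.72 and 141.77, with 678.73 in TKO ATRX. The interval chr5:33015563-33015999 scored 109.77 and 99.85, under a TKO ATRX score of 532.5. At chr9:71530042-71530647, with 76.91 and 135.38, the TKO ATRX score was 467.26. The wide interval chr9:123842856-123844767 was split in the TKO ATRX list into 2 peaks, which scored 482.03 and 254.09.

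On chromosomes 8 and 11 this overlap was rare throughout the WT ATRX list, with 1 of 246 peaks (0.41%, 0.01 to 2.24), while it was 17 of 655 TKO DAXX peaks (2.60%, 1.52 to 4.12). Of the 150 identical peaks there, 1 overlapped a TKO ATRX peak (0.67%, 0.02 to 3.66), chr8:28781841-28782097 with scores of 88.09 and 79.41. On the other chromosomes it was 45 of 600 identical peaks (7.50%, 5.52 to 9.91). The background there was 54 of 1194 WT ATRX peaks (4.52%, 3.42 to 5.86) and 95 of 1391 TKO DAXX peaks (6.83%, 5.56 to 8.28). On chromosome 9 it was 11 of 39 identical peaks, including intervals at its start, and over both places it was 7 of 13. For single chromosomes no such share over all peaks of a list was computed, so these counts have no background. The TKO ATRX list itself had 199 of its 1650 peaks on chromosomes 8 and 11 (12.1%). Of these, 16 overlapped another TKO DAXX peak. The WT ATRX scores of the identical peaks were also lower on these chromosomes, with a median of 81.84 (79.77 to 84.84) beside 86.47 (84.79 to 88.60), and the highest was 146.1. Low counts of this overlap were not limited to them: it was 0 of 23 identical peaks on chromosome 14, 0 of 24 on chromosome 15 and 0 of 22 on chromosome 17. The split into chromosomes 8 and 11 and the rest was chosen after the values had been seen.

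With WT DAXX, 9 identical peaks overlapped (1.20%, 0.55 to 2.27), where the background is 2.29% of all WT ATRX peaks and 0.489% of all TKO DAXX peaks. Outside the set it was 24 of 690 WT ATRX peaks (3.48%, 2.24 to 5.13) and 1 of 1296 TKO DAXX peaks (0.077%, 0.002 to 0.429). At scores from 100 to under 150, 4 of 137 identical peaks (2.92%, 0.80 to 7.31) and 11 of 53 others (20.8%, 10.8 to 34.1) met a WT DAXX peak. In that range of the WT ATRX score the intervals did not overlap. Under 80 it was 1 of 263 identical peaks (0.38%, 0.01 to 2.10) and 5 of 388 others (1.29%, 0.42 to 2.98). From 80 to under 100 it was 1 of 328 (0.30%, 0.01 to 1.69) and 7 of 247 (2.83%, 1.15 to 5.75). In both lower ranges the intervals overlapped. From 150 on it was 3 of 22 identical peaks, and only 2 other WT ATRX peaks were left to compare. The lowest WT DAXX score was 50.02, so this list was not called to the same limit as WT ATRX and TKO DAXX.

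The WT DAXX peaks at the 9 scored from 53.44 to 209.44 with a median of 94.16 (69.81 to 148.47), beside 72.17 (67.57 to 76.54) for the other 561 of the list, and 1 ranked among the top 100. That one lay over chr5:72559140-72559454, which had the same score of 79.12 in WT ATRX and TKO DAXX and met no TKO ATRX peak. The others among the 5 highest were over chr5:33015563-33015999 (148.47), chr18:75759310-75759902 (126.62), chr7:7230690-7231061 (100.8) and chr2:26502295-26502712 (94.16). In 7 of the 9 the WT DAXX peak enclosed the identical one. Both TKO ATRX and WT DAXX overlapped at 6 intervals. Among these, chr18:73607354-73607668 scored 112.33 and 105.11, with 129.45 in TKO ATRX and 71.08 in WT DAXX. At chr2:26502295-26502712 the scores were 123.82 and 85.02, with 86.99 in TKO ATRX. At chr18:75759310-75759902 they were 174.58 and 274.26, with 448.95 in TKO ATRX.

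Rabbit IgG peaks of either line overlapped 2 identical peaks (0.267%, 0.032 to 0.960), beside a background of 0.278% of WT ATRX and 0.293% of TKO DAXX peaks. They were a pair on chromosome 5, chr5:125866703-125866854 and chr5:125867159-125867310. Each was 152 bp wide, they lay 304 bp apart, and both scored 71.13 in WT ATRX and 77.69 in TKO DAXX. A single IgG peak enclosed both in each line. In WT cells it held 165 tags with a score of 159.56 and a fold enrichment of 24.09, and in TKO cells 260 tags with a score of 507.05 and a fold enrichment of 30.19. The summits of the IgG peaks, at positions 125867256 and 125867258, lay inside the second interval of the pair.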

How the data were processed

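Peak lists of 6 libraries were used, 1 per group, with groups taken from the sample titles. Per the submitters' processing notes, the authors used Bowtie2, Picard and the build mm9. Versions, the caller's settings and its control libraries are not stated in these sources. The ATRX and DAXX peaks carry MACS names, and the deposited files give 1 score per peak on an unnamed scale. The IgG tables, per the file headers, give a tag count, a score of 10 times the negative log10 p-value and a fold enrichment ratio over background. Scores depend on depth and control and show no change in binding between lists.

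BED starts were shifted to count from 1. Identity meant equal chromosome, start and end, and overlap at least 1 bp. Shares carry exact (Clopper-Pearson) 95% intervals and medians exact order-statistic intervals, for counting error over peaks only (Python 3.11.15, numpy 2.4.6, pandas 2.3.3, scipy 1.17.1). No test between groups was possible. The procedure was tested on simulated intervals. Named regions were those at chromosome 9 before 4 Mb and chromosome 2 from 98 to 99 Mb, the 10 highest per list, overlaps with IgG or with both other antibody lists, the 5 highest TKO ATRX and WT DAXX overlaps, the 5 largest score differences each way outside the places, and the 3 widest and narrowest. Members and rules were chosen with earlier results of these data known. Sequences and gene annotation in mm9 were not used here.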

Additional observations from a re-analysis of the deposited data

How the results depend on the processing

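Of 29 recomputed values, 18 stayed within the 95% interval of the value reported (counts within 1.5 times) and 11 moved. The number of identical peaks was 750 whether the ends could differ by 10 bp or by 100 bp or any overlap of 1 bp counted. With scores of at least 100 in both lists it was 95, their median width 394 bp, their median score difference 6.99, and their overlap 24.2% with TKO ATRX, 4.21% with WT DAXX and 0% with IgG. At a score of at least 100 in the list concerned, identical peaks made up 74.3% of WT ATRX and 50.8% of TKO DAXX peaks. Without chromosomes 8 and 11, the share of TKO DAXX peaks was 43.1%. A neighbour in the set was found for 2.80% within 10 kb and 58.5% within 1 Mb, which follows from the distance. Leaving out chromosomes 8 and 11 from the overlaps was chosen after the data were seen, and moved neither. The cause of the other moves was not tested. No paired analysis was possible because each group holds 1 library. Depth is unknown, so absence of a peak does not show absence of binding.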

Other observations

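Outside the places on chromosomes 2 and 9, 4 pairs of identical peaks lay within 10 kb of each other, and 2 of these pairs had matching widths and scores. One is the pair under the IgG peaks on chromosome 5. The other is on chromosome 1, where chr1:183193737-183194001 and chr1:183200466-183200730 are both 265 bp wide, lie 6464 bp apart and both score 110.04 in WT ATRX and 79.57 in TKO DAXX. A TKO ATRX peak with a score of 98.05 covers the second of them. The pairs on chromosomes 10 and 12 did not match in this way: chr10:9573598-9574231 and chr10:9574447-9574976 scored 101.82 and 102.89 in WT ATRX, and chr12:77958172-77958506 and chr12:77967285-77967675 scored 123.04 and 83.13. The sequence at these pairs was not analysed here.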
